A study of Homo sapiens with 6 samples.

Results

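The IFIT family comprises the interferon-induced proteins with tetratricopeptide repeats. In the deposited expression table, the rows with the gene names IFIT1, IFIT1B, IFIT2, IFIT3 and IFIT5 were taken as its members, which gave 5 of 35424 rows. The rows were taken by name alone, but the family itself was chosen with earlier results of these data known. RNA was sequenced from THP-1 cells, a leukaemia line of human monocytic origin with the genotype label WT, either untreated or exposed to PMA. This phorbol ester turns on protein kinase C and makes THP-1 cells differentiate in the direction of macrophages. There were 3 libraries per group, described by the study as biologically independent experiments, and all of them came from this 1 cell line. The sources used here do not give the dose or the time of PMA for the libraries. Total counts ran from 61547700 to 88227830 per untreated library and from 64361886 to 65698834 per PMA library. PMA libraries 2 and 3 were closer to each other (SD of the log2 ratio over tested genes 0.198) than any other pair within a group (0.270 to 0.341).

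IFIT genes are among the genes that cells switch on most strongly after type I interferon or after sensing of viral RNA. Interferon binds the receptor IFNAR1/IFNAR2, the kinases JAK1 and TYK2 phosphorylate STAT2, and STAT2 acts with IRF9 in the complex ISGF3, which binds interferon-stimulated response elements in promoters. IRF3 and IRF7, activated by RNA and DNA sensors, bind the same kind of element and can switch on IFIT genes without interferon. IFIT1 binds RNA whose cap lacks ribose methylation and blocks its translation. IFIT3 binds IFIT1 and IFIT2 and strengthens cap binding by IFIT1, IFIT2 also promotes apoptosis, and IFIT5 binds RNA ends with a triphosphate.

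The interferon-stimulated response element is shown here because it is the sequence through which this family is known to be controlled. It was searched as GAAA, any 2 bases and GAAA, on both strands of the RefSeq promoter windows (GRCh38.p14, 250 bases before to 50 after a gene start). IFIT1, IFIT1B, IFIT3 and IFIT5 matched the promoter table with 5 starts, and IFIT2 did not match. All matches in the family lie on the minus strand, so that they read TTTC, 2 bases, TTTC on the plus strand printed below. The first pair of stretches is the upstream part of the IFIT1 window (chr10:89392373-89392545) and of the window at the upstream IFIT3 start (chr10:89327747-89327940), both on the plus strand, with the matches in capitals.
IFIT1: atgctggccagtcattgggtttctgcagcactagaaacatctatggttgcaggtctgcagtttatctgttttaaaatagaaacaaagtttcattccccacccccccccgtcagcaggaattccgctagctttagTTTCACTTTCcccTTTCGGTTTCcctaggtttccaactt
IFIT3 start 1: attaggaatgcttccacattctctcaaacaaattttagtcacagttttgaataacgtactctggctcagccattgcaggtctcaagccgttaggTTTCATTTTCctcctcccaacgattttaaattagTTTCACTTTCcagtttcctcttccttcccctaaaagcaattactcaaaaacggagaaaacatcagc

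IFIT1 and both IFIT3 starts each had 2 matches, IFIT5 had 3 and IFIT1B had none. Counted from the gene start, with negative positions before it, the IFIT1 matches begin at -116 and -103. Those of IFIT3 begin at -156 and -122 for the upstream start and at -94 and -51 for the downstream start. In IFIT5 they begin at -45, -19 and -4, and the last of them runs across the gene start. The elements nearest to a start are shown as 30-base sites, 1 at the downstream IFIT3 start (chr10:89332468-89332497) and a pair at IFIT5 (chr10:89414513-89414542 and chr10:89414546-89414575), on the plus strand.
IFIT3 start 2: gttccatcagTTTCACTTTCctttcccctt
IFIT5 upstream site: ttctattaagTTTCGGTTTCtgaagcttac
IFIT5 start site: tagTTTCGATTTCttaagTTTCAGTTTCtg

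Of all 35116 promoter windows in the table, 3.57% held at least 1 match and 0.259% held 2 or more, and among the 13342 windows of genes tested here the shares were 3.07% and 0.360%. A match describes the letters only and is not a measured binding site. The AP-1 element, TGANTCA, through which phorbol esters are known to act on many genes, was found once in the family, in IFIT5 at position 21. It was present in 7.71% of all windows and in 4.89% of the windows of genes tested.

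**Figure D1:**
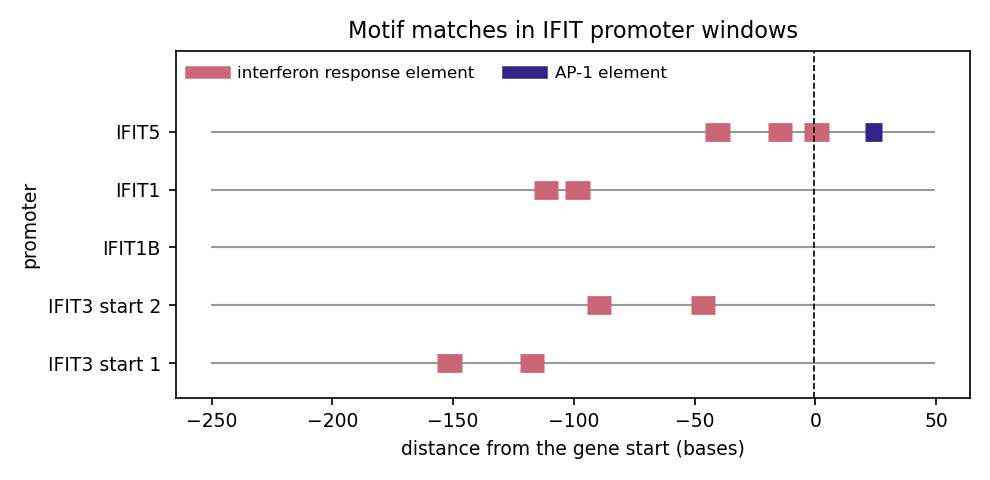
Positions of motif matches in the 5 RefSeq promoter windows of the family. The horizontal axis is the distance from the gene start in bases (dashed line), each grey line is 1 window of 300 bases, and boxes mark matches on either strand; IFIT1 and both IFIT3 starts have 2 interferon response elements each, IFIT5 has 3 and 1 AP-1 element, and IFIT1B has neither.

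After PMA, the RNA of IFIT1, IFIT2, IFIT3 and IFIT5 was higher in every PMA library than in any untreated library. How many of all genes tested also separated without overlap was not counted, so this is not shown to be particular to the family. The rise was largest in IFIT1 and smallest in IFIT5. These 4 of the 5 members passed the minimum for testing (3 or more of the 6 libraries at an FPKM of 1 or above), and all 4 were called higher at an adjusted p under 0.05 by edgeR's quasi-likelihood test, where 32.7% of the 12947 genes tested were called higher and 32.8% lower. IFIT1 passed the minimum through its PMA libraries alone, so that its call could only be a rise. With PMA libraries 2 and 3 summed and counted as 1, all 4 were still called. In bulk RNA, more cells with a transcript and more transcript per cell cannot be told apart. FPKM is the deposited value, scaled to transcript length and library size, and CPM is a gene's count scaled to the total count of the library.

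IFIT1 (ENSG00000185745, chromosome 10, 89392546 to 89406487, plus strand) had counts of 358, 414 and 222 in untreated libraries 1, 2 and 3 and of 37131, 39558 and 37220 in PMA libraries 1, 2 and 3. Per length, its level was 0.940, 0.988 and 0.756 FPKM in untreated cells and 118, 129 and 120 FPKM after PMA. The untreated libraries all lay under 1 FPKM, and the groups did not overlap. The mean rose from 4.27 ± 0.580 CPM to 584 ± 26.6 CPM (SD, n = 3 libraries each), a log2 fold change of 7.12 (SE 0.12, adjusted p = 3.311e-08 by edgeR). It ranked 22 among the 12947 genes by log2 fold change.

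IFIT3 (ENSG00000119917, chromosome 10, 89327307 to 89342166, plus strand), the partner that strengthens cap binding by IFIT1, had counts of 1088, 1062 and 708 in untreated cells and of 65258, 65738 and 66249 after PMA. Its level was 2.60, 2.31 and 2.20 FPKM in untreated cells and 189, 195 and 195 FPKM after PMA. The groups did not overlap, and the PMA libraries lay closer together than those of any other member, with an SD of 1.79% of the mean FPKM. The log2 fold change was 6.38 (SE 0.10, adjusted p = 3.311e-08 by edgeR), from 12.4 ± 1.14 to 1012 ± 15.8 CPM (SD, n = 3 each). IFIT3 had the smallest p of all genes tested, and by mean FPKM it moved from rank 9475 in untreated cells to rank 91 after PMA.

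IFIT2 (ENSG00000119922, chromosome 10, 89283694 to 89309271, plus strand), the member linked to apoptosis, had counts of 555, 576 and 349 in untreated cells and of 25524, 28132 and 27746 after PMA. Its level was 1.56, 1.47 and 1.27 FPKM in untreated cells and 86.6, 97.8 and 95.8 FPKM after PMA, again with no overlap. The log2 fold change was 6.06 (SE 0.11, adjusted p = 3.523e-08 by edgeR), from 6.39 ± 0.668 to 418 ± 25.7 CPM (SD, n = 3 each).

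IFIT5 (ENSG00000152778, chromosome 10, 89414568 to 89421605, plus strand), the member that binds triphosphate RNA ends, had counts of 880, 1069 and 689 in untreated cells and of 6314, 8015 and 8065 after PMA. Its level was 2.45, 2.70 and 2.49 FPKM in untreated cells and 21.2, 27.6 and 27.6 FPKM after PMA. The groups did not overlap, and PMA library 1 lay below the other two. The log2 fold change was 3.36 (SE 0.12, adjusted p = 4.397e-07 by edgeR), from 11.5 ± 0.569 to 115 ± 16.3 CPM (SD, n = 3 each), and it was 3.47 without PMA library 1.

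**Figure D2:**
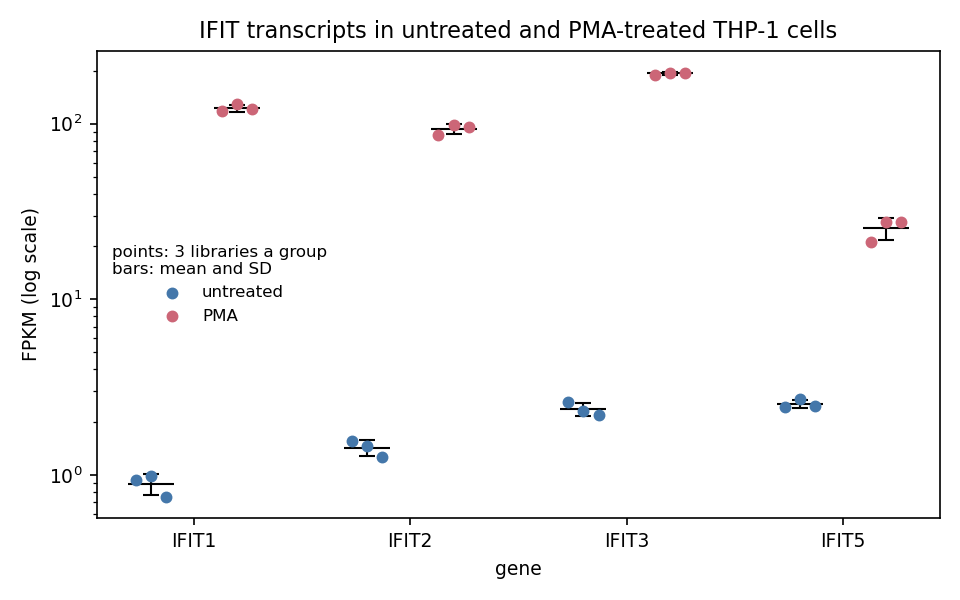
FPKM of the 4 tested IFIT genes in each library, on a log axis. Points are the 3 untreated (blue) and 3 PMA (red) libraries, and bars give the mean and SD; IFIT1 goes from under 1 to between 118 and 129 FPKM and IFIT5 from between 2.45 and 2.70 to between 21.2 and 27.6 FPKM.

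IFIT1B (ENSG00000204010, chromosome 10, 89378056 to 89385205, plus strand) lies beside IFIT1 and is its closest relative in the family. It had 0 counts in all untreated libraries and 6, 30 and 32 counts in PMA libraries 1, 2 and 3, at most 0.239 FPKM. It stayed under the minimum for testing. A floor of 12 counts was taken over the untreated group, the equivalent of 3 read pairs at 4 counts a pair. Against it, the CPM pooled over the PMA libraries was at least 6.66-fold higher. PMA library 1 alone was at 0.0913 CPM, from 6 counts, which is fewer than the 12 of the floor. The floor of 0.0524 CPM is taken over the pooled untreated libraries, so that these 2 values are not directly comparable. The pooled bound allows for counting error in the untreated group only, and what 1 read pair is worth in counts was not tested. Of the 1942 stretches of 31 bases in its annotated transcript, 85 also occur in IFIT1, and its PMA counts came to 0.0597% of those of IFIT1. Whether reads of IFIT1 contributed to them was not tested. IFIT1, IFIT2, IFIT3 and IFIT5 share no 31-base stretch with one another.

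The composition of the family differed between the groups. Levels of different genes are compared here in FPKM, and the length that count and FPKM together imply stayed between 4448 and 5261 bases for the 4 tested members in all libraries. In untreated cells the order by mean FPKM was IFIT5 (2.54 ± 0.135), IFIT3 (2.37 ± 0.208), IFIT2 (1.43 ± 0.149) and IFIT1 (0.894 ± 0.123). The ranges of IFIT5 and IFIT3 overlapped, and the other neighbours in this order did not. After PMA the order was IFIT3 (193 ± 3.45), IFIT1 (123 ± 5.65), IFIT2 (93.4 ± 5.92), IFIT5 (25.4 ± 3.67) and IFIT1B (0.169 ± 0.111), with no overlap between neighbours.

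IFIT5 and IFIT3 were the largest parts of the family's summed FPKM in untreated cells, and IFIT5 was the smallest of the 4 tested members after PMA. The share of IFIT5 was 32.4%, 36.2% and 37.0% in untreated libraries 1 to 3 and 5.11%, 6.14% and 6.27% in PMA libraries 1 to 3. The share of IFIT1 went from 12.3% ± 0.999 to 28.2% ± 0.670 (SD, n = 3 each) and that of IFIT3 from 32.7% ± 1.78 to 44.5% ± 1.08. In untreated library 1 the share of IFIT3 (34.5%) was above that of IFIT5, and in untreated libraries 2 and 3 (30.9% and 32.8%) it was below. The share of IFIT2 was 19.7% ± 0.886 and 21.5% ± 0.526, the smallest difference of the 4. As a share of all counts, the whole family made up 0.00320% to 0.00363% in untreated cells and 0.204% to 0.220% after PMA.

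**Figure D3:**
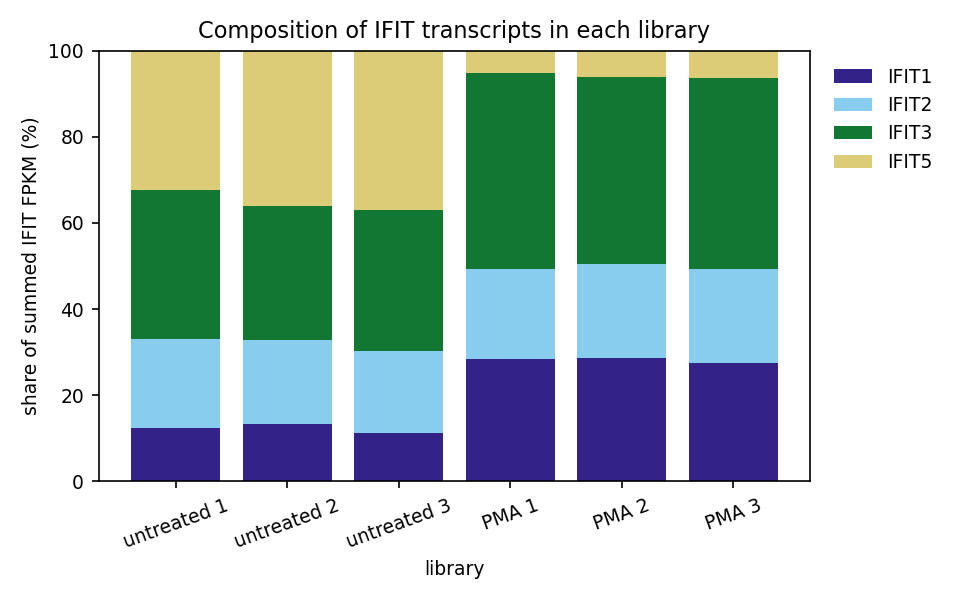
Share of each member in the summed FPKM of the family, in percent, 1 bar per library. IFIT5 takes 32.4% to 37.0% in the untreated libraries and 5.11% to 6.27% in the PMA libraries, while IFIT1 and IFIT3 take larger shares after PMA; IFIT1B is too small to be seen.

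Whether members rose by different factors was tested on the log2 ratio of their CPM within each library, in which the depth of a library cancels; the lengths of the genes cancel in the change of the ratio between groups. All 6 pairs among the 4 tested members changed without overlap between the groups. How often other pairs of genes do so was not counted. The ratio of IFIT1 to IFIT5 rose by 3.79 on the log2 scale (SE 0.15), that of IFIT3 to IFIT5 by 3.04 (SE 0.15) and that of IFIT2 to IFIT5 by 2.72 (SE 0.12). In FPKM, the IFIT3 to IFIT5 ratio was between 0.855 and 1.06 in untreated cells and between 7.07 and 8.91 after PMA. Among the other members the changes were smaller. The ratio of IFIT1 to IFIT2 rose by 1.07 (SE 0.07), that of IFIT1 to IFIT3 rose by 0.75 (SE 0.10), and that of IFIT2 to IFIT3 fell by 0.32 (SE 0.06). Each pair gave p = 0.1 in a two-sided exact permutation test (adjusted p = 0.1 over the 6 pairs), which is the smallest value that 3 against 3 libraries can give, so that no ratio could pass 0.05.

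The interferon genes themselves were near the limit of detection. Of 21 type I and type III ligand genes, 4 had rows in the table and none passed the minimum. IFNB1, the interferon-beta gene, was at 0, 0.0453 and 0 CPM in untreated cells and at 1.16, 1.13 and 0.708 CPM after PMA. IFNL1, a type III interferon, was at 0 CPM in all untreated libraries and at 0.472, 1.34 and 1.20 CPM after PMA. In both genes every PMA library lay above every untreated library, but how many of all genes do so was not counted. The other ligand genes with rows were IFNE and IFNA10. IFNE had 4 counts in untreated library 1 alone, and IFNA10 had 2 counts in PMA library 3 alone.

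The 6 genes examined of the interferon receptor, its kinases and ISGF3 were all called higher after PMA, against 32.7% of all genes tested. Their median log2 fold change was 0.79, against -0.01 over all genes tested. Of the 6, 1 passed the minimum through the PMA libraries alone, so that its call could only be a rise. IRF9 was the lowest of the 6 in untreated cells, at a mean of 4.16 CPM, and STAT2 the next at 22.9 CPM. STAT2 and IRF9 rose most of these 6. STAT2 rose by 3.61 on the log2 scale (SE 0.09) and IRF9 by 4.15 (SE 0.16). The receptor chains IFNAR1 and IFNAR2 rose by 0.70 and 0.88, and the kinases JAK1 and TYK2 by 0.58 and 0.43. The call of TYK2 was lost when no filter on low values was applied (log2 fold change 0.29, adjusted p = 0.1235 by edgeR).

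Of 12 genes of RNA and DNA sensing, 11 were tested. All 11 were called higher (median log2 fold change 0.69), against 32.7% of all genes tested. Of these 11, 2 passed the minimum through the PMA libraries alone, so that they could only rise. IRF7, the factor that amplifies the interferon response, rose by 6.06 (SE 0.17). The RNA sensors RIGI and IFIH1 and their regulator DHX58 rose by 4.62, 4.31 and 4.26. TICAM1, the adaptor of TLR3, rose by 1.11, the kinase IKBKE by 0.69 and the DNA sensor CGAS by 0.66. The adaptors MAVS (0.27) and STING1 (0.27), the kinase TBK1 (0.30) and IRF3 (0.29) had the smallest differences, and their calls were lost with no filter on low values and with DESeq2, where 7 of the 11 genes were called. The call of TBK1 (adjusted p = 0.04788 by edgeR) was also lost with library totals alone, with PMA libraries 2 and 3 summed, in all limma fits and without any 1 library other than PMA library 1. The call of IRF3 was also lost in all limma fits and without untreated library 2 or 3, that of STING1 without untreated library 2 and that of MAVS without PMA library 2. TLR3 itself was under the minimum, at 0.0907 to 0.195 CPM in untreated cells and 0.746 to 1.32 CPM after PMA.

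Of the other IRF factors, which bind related elements, IRF1 rose by 1.71 and IRF2 by 2.23 on the log2 scale. IRF8 fell by 0.32 (adjusted p = 0.008613 by edgeR), and its call was lost among genes with a mean FPKM of at least 5 (log2 fold change -0.20, adjusted p = 0.05417). IRF5 was not called (0.11, adjusted p = 0.1714), but passed at 0.24 in that same setting. The 4 genes known to restrain interferon signalling were all called higher, against 32.7% of all genes tested, with a median log2 fold change of 4.39. Of these 4, 2 passed the minimum through the PMA libraries alone, so that they could only rise. USP18, which blocks the receptor, rose by 5.63, ISG15, which stabilises USP18 in human cells, by 5.03, and SOCS1 and SOCS3, inhibitors of JAK signalling, by 3.75 and 2.73.

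Of 30 other antiviral interferon-stimulated genes, 28 were tested, 27 were called higher and none lower. Over all genes tested, 32.7% were called higher and 32.8% lower. The median log2 fold change of the 28 was 4.27. Of the 28, 9 passed the minimum through the PMA libraries alone, so that they could only rise. The largest rises were those of IFI44L (7.80, SE 0.14) and TRIM22 (7.43, SE 0.12), the latter an antiviral ubiquitin ligase. In untreated cells these 2 had low means of 1.46 and 1.16 CPM, so that the minimum may have fixed their direction. IFITM2 was not called (0.37, adjusted p = 0.1587 by edgeR). It is named here after its values were seen. The log2 fold changes of IFIT1, IFIT2 and IFIT3 were above the median of this group, and that of IFIT5 was below it.

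The RNA of EIF3 subunits and of genes of mRNA cap formation was measured as well, but not their proteins or the state of caps. IFIT1 and IFIT2 bind the initiation factor EIF3 when they reduce translation. All 13 of its subunits were called lower, against 32.8% of all genes tested, with a median log2 fold change of -0.77. The largest falls were those of EIF3B (-1.22, SE 0.07) and EIF3K (-1.13, SE 0.17). The call of EIF3J (-0.43) was lost among genes with a mean FPKM of at least 5 and without untreated library 2, untreated library 3 or PMA library 3, which left 12 of 13 called in each case. Of 6 enzymes and cofactors of mRNA cap formation, CMTR1, the cap ribose methyltransferase whose product IFIT1 binds poorly, rose by 1.27 (SE 0.13). RAMAC, the activator of the cap guanine methyltransferase, was called higher (0.31, adjusted p = 0.02791 by edgeR), but its call was lost with DESeq2 (adjusted p = 0.2646), with no filter on low values and without untreated library 2, untreated library 3, PMA library 1 or PMA library 2. PCIF1, a cap adenosine methyltransferase, was called lower (-0.53, adjusted p = 0.004691). RNGTT (-0.07), RNMT (0.03) and CMTR2 (0.43, adjusted p = 0.05698), named after their values were seen, were not called, and CMTR2 was called with the replicate block (adjusted p = 0.02517) and without untreated library 3 or PMA library 1.

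**Figure D4:**
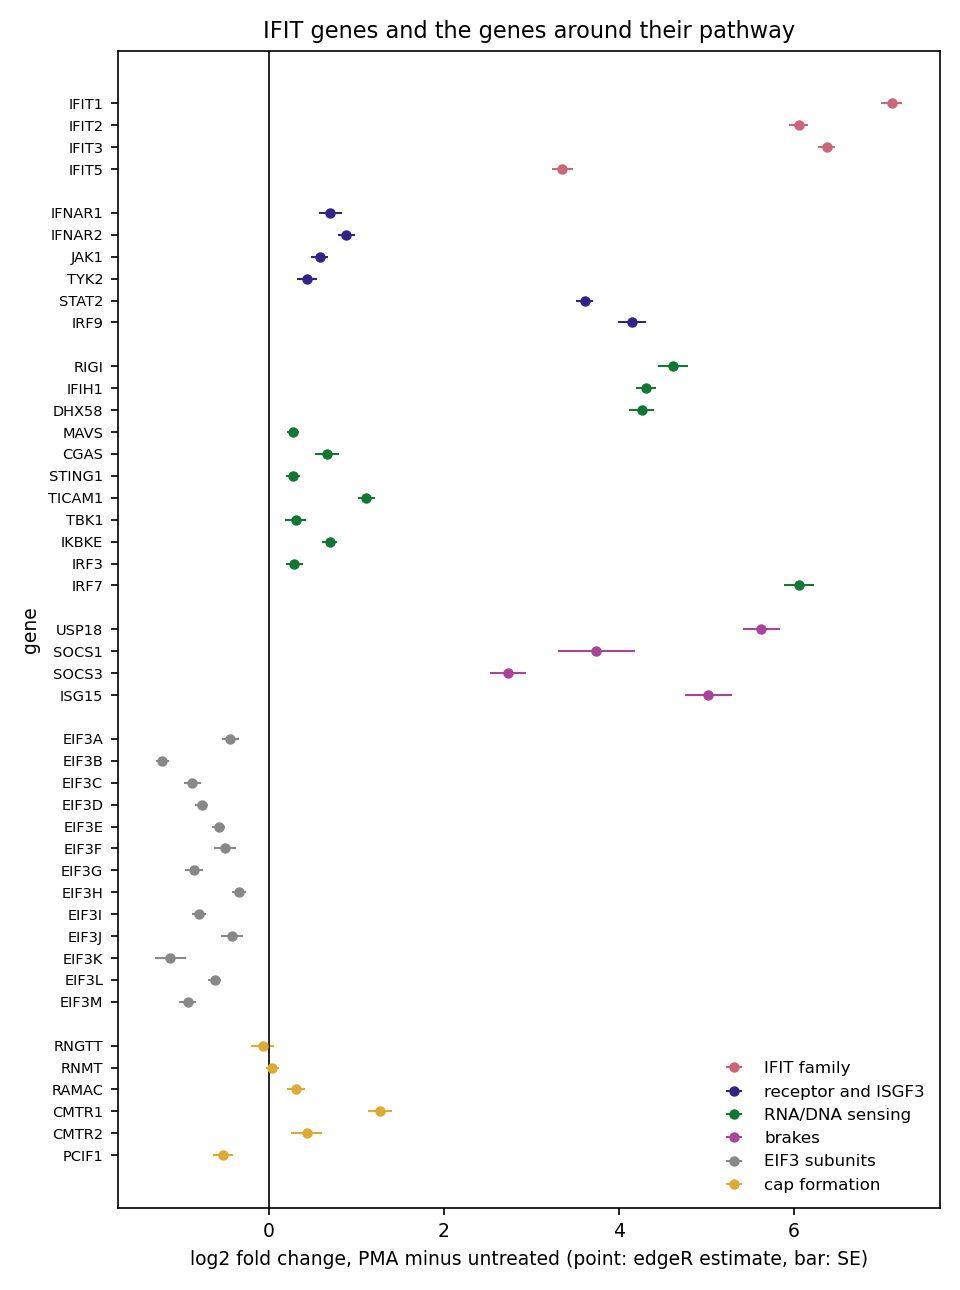
Log2 fold change, PMA minus untreated, of the tested IFIT genes and of the genes around their pathway, with the SE as bars. STAT2, IRF9, IRF7, the RNA sensors and the brakes lie at 2.73 or above, the receptor chains and most adaptors between 0.27 and 1.11, and all 13 EIF3 subunits below 0.

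The members lie in 1 cluster of 137.912 kb on chromosome 10 (89283694 to 89421605). Within 500 kb of it there were 22 other genes in the table, of which 4 were tested. Of these 4, 1 was called higher and none lower, against 32.7% and 32.8% of all genes tested. The gene that rose was LIPA, which encodes the lysosomal acid lipase. It was at 77.7, 82.5 and 92.1 CPM in untreated cells and at 207, 234 and 221 CPM after PMA, a log2 fold change of 1.42 (SE 0.10, adjusted p = 9.142e-06 by edgeR). PANK1 (0.07) and KIF20B (-0.12) were not called, and neither was an unnamed transcript on the minus strand (ENSG00000240996, 0.63, adjusted p = 0.1494). CH25H, an interferon-stimulated gene next to LIPA, had at most 4 counts in any library. FAS was under the minimum, at 0.667, 0.714 and 0.975 CPM in untreated cells and 3.23, 2.97 and 4.45 CPM after PMA.

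By the deposited coordinates, LIPA (89213569 to 89414557, minus strand) spans IFIT2, IFIT3, IFIT1B and IFIT1 on the opposite strand. Its upper coordinate, which on the minus strand is its own start, lies 10 bases before the start of IFIT5. Of the 4326 exonic bases of IFIT2 in GENCODE v44, 65 overlap LIPA exons, and of the 5067 of IFIT3, 94 do. IFIT1, IFIT1B and IFIT5 share none. IFIT2 shares 589 exonic bases with any gene, mostly with ENSG00000232110, which had at most 31 counts in a library. The sources used here do not say whether counting used strand, so that reads in the overlaps with LIPA cannot be assigned to 1 gene. ENSG00000232110 lies on the same strand as IFIT2, so that strand could not separate their reads. The part of reads from IFIT genes in the rise of LIPA was not tested.

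**Figure D5:**
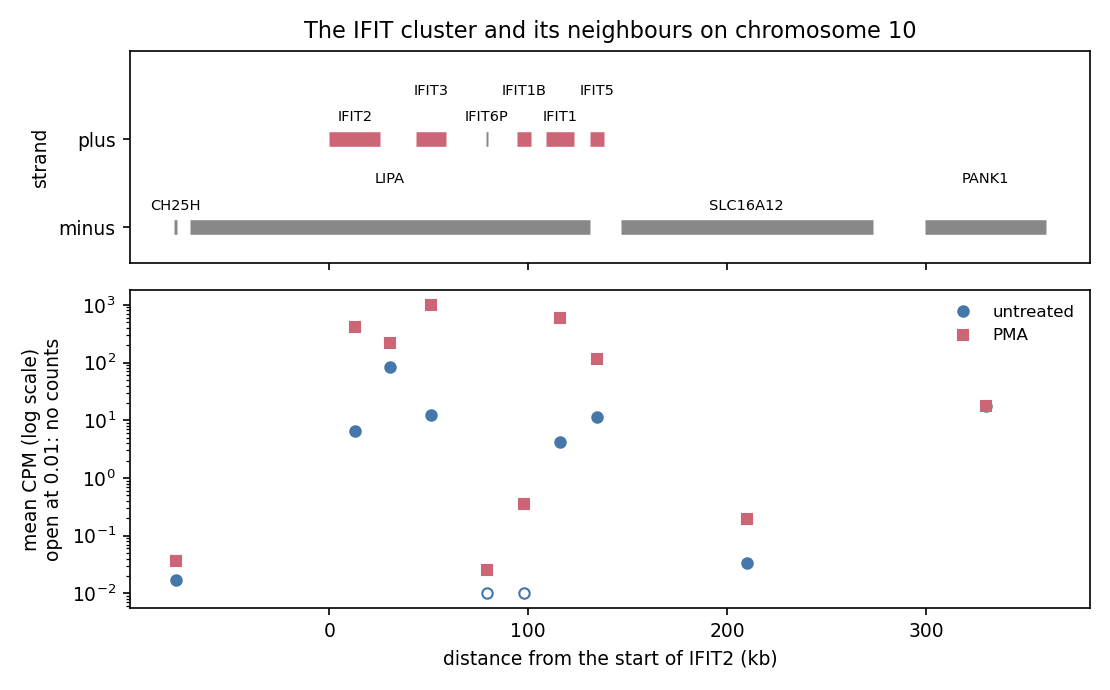
The IFIT cluster on chromosome 10 with gene spans by strand (top) and mean CPM of each gene on a log axis (bottom), against the distance from the start of IFIT2 in kb. Circles are untreated and squares PMA means of 3 libraries, and open symbols at 0.01 mark genes with no counts; LIPA goes from 84.1 to 221 CPM and PANK1 from 17.4 to 17.9 CPM.

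The genes whose profile over the 6 libraries was most like that of IFIT1, IFIT2 and IFIT3 were sought by the root mean square distance of centred log2(CPM + 1) values from the mean profile of these 3 members. IFIT3 itself lay at 0.0488, IFIT2 at 0.233, IFIT1 at 0.260 and IFIT5 at 1.55. Tested genes outside the family that lay near this profile were XIRP1 (0.0721), OAS2 (0.0964), OAS1 (0.112), SLC12A8 (0.113), EPSTI1 (0.125), EGR2 (0.140), TRIM22 (0.148), HELZ2 (0.176) and IFI44 (0.177). OAS1 and OAS2, which make oligoadenylate on sensing double-stranded RNA, EPSTI1, TRIM22, HELZ2 and IFI44 are known interferon-stimulated genes. EGR2 is a transcription factor of macrophage differentiation. The measure rests on the 6 libraries and mostly on the size of 1 difference between the groups on the log2(CPM + 1) scale. That scale understates the change of low genes: XIRP1 and SLC12A8, at 0.303 and 0.398 CPM in untreated cells, had log2 fold changes of 8.45 and 8.06, above those of the 4 tested IFIT genes.

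The labelled cell type was checked on 8 monocytic markers, whose summed level was 1010 to 1131 CPM in untreated cells and 1383 to 1450 CPM after PMA. PTPRC, SPI1, CD33 and FCGR1A were present, while LYZ lay at 1.76 to 2.53 CPM and CD14 at 0.406 to 1.32 CPM over all libraries. Summed markers of lymphoid cells were at 3.14 to 4.64 and 5.61 to 8.65 CPM, those of erythroid cells and platelets at 0 to 0.0793 and 0 to 0.559 CPM, and those of epithelial cells and fibroblasts at 2.97 to 3.88 and 4.40 to 5.83 CPM. Mitochondrially encoded genes took 4.33% to 7.45% of the counts in untreated cells and 5.80% to 6.29% after PMA. Their part in the results was not tested.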

How the data were processed

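RNA-seq of 6 THP-1 libraries was analysed. The authors deposited 1 table with an estimated count and an FPKM value per gene and library, made from read pairs of 150 bases of oligo(dT)-selected mRNA. In the submitters' processing notes, hg38 and DESeq2 are named, and the sources used here do not name the aligner, counting tool, annotation release or use of strand. The deposited estimated counts are whole numbers with no scaling to depth and needed no rounding. Low counts pile up at multiples of 4 (37.2% to 39.1% of values from 3 to 22, against 25% of whole numbers). The deposited FPKM values are relative to gene length and library size.

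For names with several rows, 1 row was kept, which left 35042 genes. The 12947 genes that reached an FPKM of 1 in 3 or more libraries were tested with edgeR 4.0.16 (quasi-likelihood test, TMM, R 4.3.3) with no term besides treatment, and p-values were adjusted over all of them (Benjamini-Hochberg). Calls were made at an adjusted p under 0.05. Each SE is approximate, being the log2 fold change over the square root of F. P-values set the difference between the groups against the spread between these libraries, which edgeR estimates with information shared across genes. Alternatives used DESeq2 1.42.0, limma 3.58.1 on log2(FPKM + pseudocount), other scalings and filters, and left out each library. Exact permutation tests used scipy 1.17.1. Bounds cover counting error at most, since reads carry no molecular identifiers.

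The libraries share replicate numbers in the labels. The deviations of same-numbered libraries from their group means had positive correlations over tested genes (0.521, 0.176 and 0.139). Untreated libraries 2 and 3 correlated better with PMA libraries 3 (0.290) and 2 (0.226). Deviations cancel within a group, so that these correlations are not independent and cannot show whether the numbers pair the libraries. Promoters are from RefSeq (GRCh38.p14) and exons from GENCODE v44.

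The family, its gene lists and tests were chosen with earlier results of these data known. The genes named were the members, all genes of the ligand, receptor, sensing, brake and neighbour lists, the largest changes of longer lists and the 10 most like profiles. Exceptions are marked in the text, and some genes that fall under this rule are not reported here. The ChIP-seq of the study was not analysed here.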

Additional observations from a re-analysis of the deposited data

How the results depend on the processing

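The rises of IFIT1, IFIT2, IFIT3 and IFIT5 kept their direction and their call in all 17 alternatives run for each, with a highest adjusted p of 1.078e-05. Not all of these alternatives could have given a fall. At a mean FPKM of at least 5, every one of these members passed through its PMA libraries alone and could only rise. IFIT1 could only rise in all settings with the main minimum as well, which was not used with no filter and with DESeq2. In the count-based fits their log2 fold changes ranged from 6.98 to 7.25 for IFIT1, 5.91 to 6.18 for IFIT2, 6.23 to 6.50 for IFIT3 and 3.21 to 3.48 for IFIT5. Leaving out each library in turn gave 7.04 to 7.20, 6.0 to 6.13, 6.34 to 6.45 and 3.30 to 3.47. With the replicate block they were 7.13, 6.06, 6.38 and 3.35, and the block changed no call of a member. On log2(FPKM + 5), which understates changes of low genes, they were 4.43, 3.93, 4.75 and 2.01, so that IFIT3 stood before IFIT1. Restricting the test to a mean FPKM of at least 5 left 7142 genes, with 2433 called higher and 2457 lower, because fewer genes were tested. The median log2 fold change of the genes tested shifted by -0.147 with no filter, by -0.126 with DESeq2 and by 0.124 with that restriction. These shifts were small beside the changes of the IFIT genes. The calls of MAVS, STING1, TBK1 and IRF3 were lost with no filter and with DESeq2, and some of them in other settings with almost no shift, and the cause was not tested. No gene of the pathway lists whose call changed turned its direction. IFIT1B gave a value only with no filter (adjusted p = 0.01014 by edgeR) and with DESeq2 (adjusted p = 9.739e-05). The 6 ratios kept their direction in all 42 alternatives. Groups of 3 libraries cannot bring an exact test of a ratio under 0.1, and the untreated level of IFIT1B is limited by depth.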
